A study of Mus musculus with 6 samples.

Results

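Cytochrome P450 genes encode haem-containing monooxygenases of the endoplasmic reticulum and mitochondria. They were taken as every autosomal protein-coding gene of the GENCODE annotation of GRCm38 whose symbol is Cyp followed directly by a number. There were 100 such genes among 20807 autosomal protein-coding genes. Of these, 69 lay in 7 large clusters of at least 5 Cyp genes with no more than 500 kb between neighbours, and 31 lay elsewhere. The chromatin marks were measured in colonic epithelial organoids of C57BL/6 mice, cultured as they were (wt) or kept for 3 weeks in TNFα at 40 ng/ml (wt+TNFα). TNFα is an inflammatory cytokine, and both conditions were of the same genotype. For each condition there was 1 H3K4me3 library, 1 H3K27me3 library and 1 input, with a stated depth of 40000000 reads for H3K4me3 and input and 60000000 for H3K27me3. The reporting summary of the study gives more reads for wt+TNFα than for wt in H3K4me3 and in the input, and nearly equal numbers for H3K27me3. The part of this depth difference in the H3K4me3 and H3K27me3 calls was not tested. With 1 library for each mark and condition, no value below has a replicate error, no difference was tested, and every comparison is between 2 libraries.

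H3K4me3 marks the promoters of genes that are transcribed or poised, and H3K27me3, deposited by Polycomb repressive complex 2, covers silenced developmental and tissue-restricted genes. A promoter with both is called bivalent. The Cyp families fall into enzymes of fixed metabolic pathways, such as cholesterol, vitamin D, retinoic acid and steroid hormone metabolism, and into the large tandem arrays of families 2, 3 and 4, which act mainly on fatty acids, drugs and other foreign compounds and are best known from liver. In the gut epithelium, Cyp1 enzymes are induced through the aryl hydrocarbon receptor by dietary and microbial ligands. Here a promoter was the 1000 bp to either side of any annotated transcript start of a gene. It was called active with an H3K4me3 peak alone, repressed with an H3K27me3 peak alone, bivalent with both and unmarked with neither.

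Most of these genes carried neither mark. In wt, 64 of the 100 Cyp genes were unmarked, compared with 31.3% of all autosomal protein-coding genes. Of the others, 18 were active (46.4% of all genes), 16 repressed (16.9%) and 2 bivalent (5.39%). In wt+TNFα, 62 were unmarked (26.7% of all genes), 15 active (45.9%), 22 repressed (20.8%) and 1 bivalent (6.70%). H3K4me3 was called at 20 wt and 16 wt+TNFα promoters of the Cyp genes (51.8% and 52.6% of all genes). H3K27me3 was called at 18 and 23 (22.3% and 27.5%). Among the 31 genes outside the large clusters, 11 were unmarked in wt, and among the 69 inside them 53 were. The H3K4me3 share of the family was thus well below that of all genes in both conditions, and the H3K27me3 share a little below it.

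**Figure D1:**
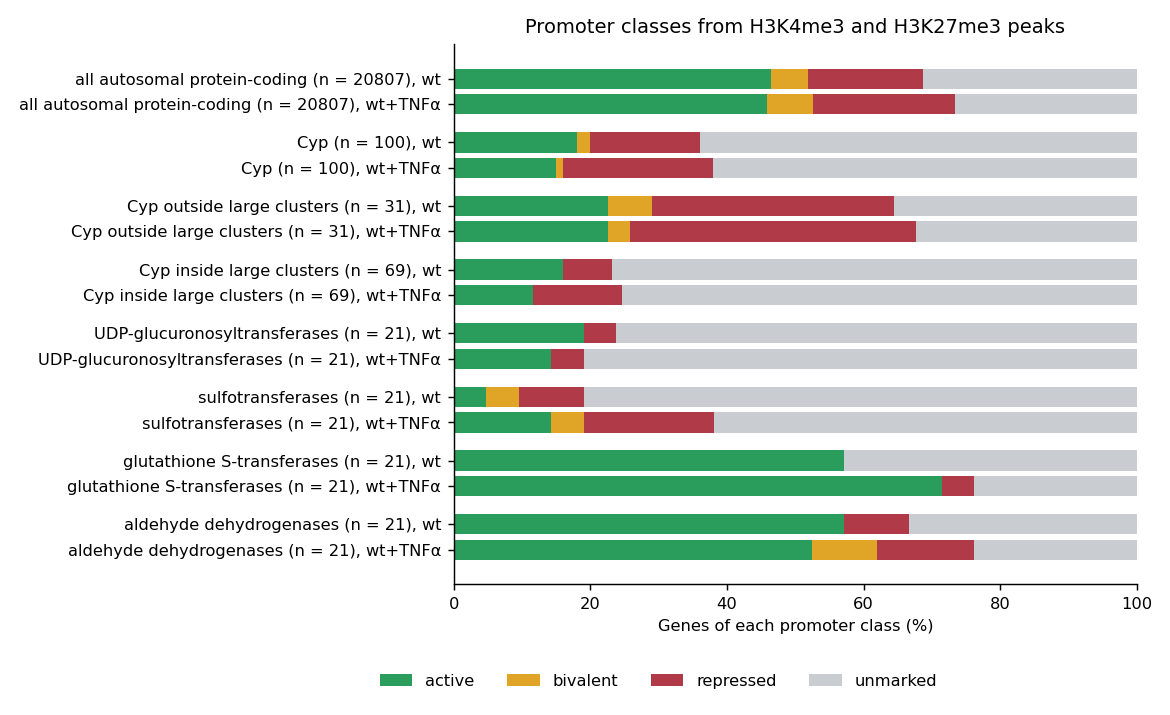
Stacked bars give the percentage of genes in each promoter class (horizontal axis, %) for all autosomal protein-coding genes, the Cyp genes, and other families of drug-metabolising enzymes, with a bar for wt and a bar for wt+TNFα. The grey unmarked part took 64.0% and 62.0% of the Cyp genes and was largest, at 76.8% and 75.4%, among the 3 Cyp sets for the genes inside large clusters.

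The promoters that show the range of states are given here from RefSeq (build GRCm38.p6), each from 250 bases before to 50 bases after the start of transcription and read 5′ to 3′ on the strand of the gene. The first set contrasts the Cyp promoter with the strongest H3K4me3, an active promoter with few CpG dinucleotides, and a promoter of the unmarked Cyp3a cluster, with each CpG in capitals. Cyp51 is at chr5:4104648-4104947 (minus strand) with 28 CpG, Cyp3a13 at chr5:137921570-137921869 (minus strand) with 1, and Cyp3a11 at chr5:145879805-145880104 (minus strand) with 2.
Cyp51: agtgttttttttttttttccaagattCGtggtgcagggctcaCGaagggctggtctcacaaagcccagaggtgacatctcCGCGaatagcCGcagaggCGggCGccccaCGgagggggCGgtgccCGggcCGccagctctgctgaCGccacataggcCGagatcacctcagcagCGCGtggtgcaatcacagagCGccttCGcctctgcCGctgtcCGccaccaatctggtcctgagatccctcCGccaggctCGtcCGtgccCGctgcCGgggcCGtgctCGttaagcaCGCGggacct
Cyp3a13: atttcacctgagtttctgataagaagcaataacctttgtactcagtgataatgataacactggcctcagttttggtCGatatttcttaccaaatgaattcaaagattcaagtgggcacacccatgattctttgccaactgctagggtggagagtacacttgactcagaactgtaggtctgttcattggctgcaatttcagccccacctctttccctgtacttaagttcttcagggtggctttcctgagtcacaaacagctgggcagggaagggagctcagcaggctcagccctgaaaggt
Cyp3a11: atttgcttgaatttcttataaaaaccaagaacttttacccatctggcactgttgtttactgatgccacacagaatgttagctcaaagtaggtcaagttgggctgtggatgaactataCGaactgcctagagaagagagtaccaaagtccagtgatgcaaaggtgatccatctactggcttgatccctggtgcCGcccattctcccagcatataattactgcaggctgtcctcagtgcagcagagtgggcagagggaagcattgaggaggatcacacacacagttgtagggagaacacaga
All 300 bases of the Cyp51 window lay under H3K4me3 in both conditions. At Cyp3a13 the H3K4me3 peak lay almost wholly downstream of this window, which it covered by 0 bases in wt and 15 in wt+TNFα. No base of the Cyp3a11 window lay under a peak of any of the 4 lists.

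The second set shows promoters whose window holds letters of a known type of regulatory element. Cyp1a1 is at chr9:57697363-57697662 (plus strand), and the capitals mark a match to GCGTG, the core of the xenobiotic response element of the aryl hydrocarbon receptor. Whether the receptor binds at this match was not tested. Cyp26a1 is at chr19:37697558-37697857 (plus strand), and the capitals mark a direct repeat of the retinoic acid response element with a spacer of 5 bases, found on the minus strand.
Cyp1a1: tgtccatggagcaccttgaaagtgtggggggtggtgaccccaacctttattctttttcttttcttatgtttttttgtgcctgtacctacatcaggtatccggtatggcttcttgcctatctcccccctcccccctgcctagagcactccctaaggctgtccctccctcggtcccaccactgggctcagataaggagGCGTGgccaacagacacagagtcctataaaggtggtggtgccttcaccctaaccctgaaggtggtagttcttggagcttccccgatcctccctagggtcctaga
Cyp26a1: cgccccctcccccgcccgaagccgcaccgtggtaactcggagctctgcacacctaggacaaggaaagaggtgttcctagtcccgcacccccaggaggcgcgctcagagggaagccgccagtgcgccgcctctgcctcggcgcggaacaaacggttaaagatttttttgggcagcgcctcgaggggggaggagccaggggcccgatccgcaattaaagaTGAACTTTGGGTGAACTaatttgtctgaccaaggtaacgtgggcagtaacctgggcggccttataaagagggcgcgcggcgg
The whole Cyp1a1 window, 300 bases, lay under H3K4me3 in wt, and 0 bases did in wt+TNFα. The whole Cyp26a1 window lay under H3K27me3 in both conditions.

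Active promoters held 13 genes (13.0%) in both conditions, compared with 44.6% of all genes. With the lower 50% of each list by −log10 q, the significance value of the peak caller, left out, only Cyp51 of these was active in both. The share of all genes at this setting was not computed. The peak lists give for each peak a fold enrichment over the local background, computed separately for each library, so that peaks are described here by this value and by the percentage of peaks in the same list with a lower value, called the rank. Cyp51, lanosterol 14α-demethylase of cholesterol synthesis, had by far the strongest H3K4me3 of the family, with a fold enrichment of 46.1 in wt and 52.2 in wt+TNFα (ranks 92.1% and 97.3%). Its gene spans 4081145 to 4104746 on chromosome 5, and the peak covered 1947 bp in wt and 1885 bp in wt+TNFα at the 5′ end. The other 12 genes lay in the lower and middle part of both lists. Over the 13, the median fold enrichment was 15.6 in wt, compared with 28.2 over the 10623 genes of the annotation with H3K4me3 in both conditions, and 18.9 compared with 30.9 in wt+TNFα.

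Members outside the arrays with broad or basic roles were Cyp20a1, an orphan enzyme (fold enrichment 19 in wt and 22.7 in wt+TNFα), Cyp2u1, a fatty acid hydroxylase (14.6 and 11.7), Cyp39a1, an oxysterol 7α-hydroxylase (14.3 and 20.6), and Cyp4v3, a fatty acid hydroxylase (9.18 and 13.2). The Cyp39a1 peak also covered the promoter of its neighbour Slc25a27, so that it cannot be assigned to Cyp39a1 alone. The peaks of Cyp2u1 (4930534D22Rik), Cyp2s1 (Gm26707), Cyp2d34 (Gm49431) and Cyp2c55 (Gm23800) also covered a promoter of the gene in parentheses. Cyp2s1, an extrahepatic enzyme at the edge of the chromosome 7 array, had 17.0 and 18.9 and the widest peak of the 13 except Cyp2d34, at 2668 bp in wt and 2679 bp in wt+TNFα.

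Apart from Cyp3a13, the remaining active genes were 1 or 2 members of a larger array. In the Cyp2c cluster of 14 genes these were Cyp2c55 (12.8 in wt and 10.7 in wt+TNFα) and Cyp2c68 (15.6 and 10.9), of a subfamily of arachidonic acid and drug oxidases. In the Cyp2d cluster this was Cyp2d34 (16.4 and 19.3), and in the Cyp2j cluster of arachidonic acid epoxygenases it was Cyp2j6 (23.9 and 20.7). The Cyp4f cluster, whose enzymes hydroxylate fatty acids and leukotrienes, held Cyp4f13 (16.2 and 30.9) and Cyp4f16 (12.1 and 18.5). Cyp3a13, a drug oxidase that lies apart from the Cyp3a cluster on chromosome 5, had 11.7 in wt and 7.03 in wt+TNFα, and was unmarked in both with the 1000 bp upstream of the start alone. The rank of Cyp4f13 differed most between the lists, at 28.9% in wt and 60.5% in wt+TNFα, whereas that of Cyp3a13 was 18.8% and 7.0%.

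**Figure D2:**
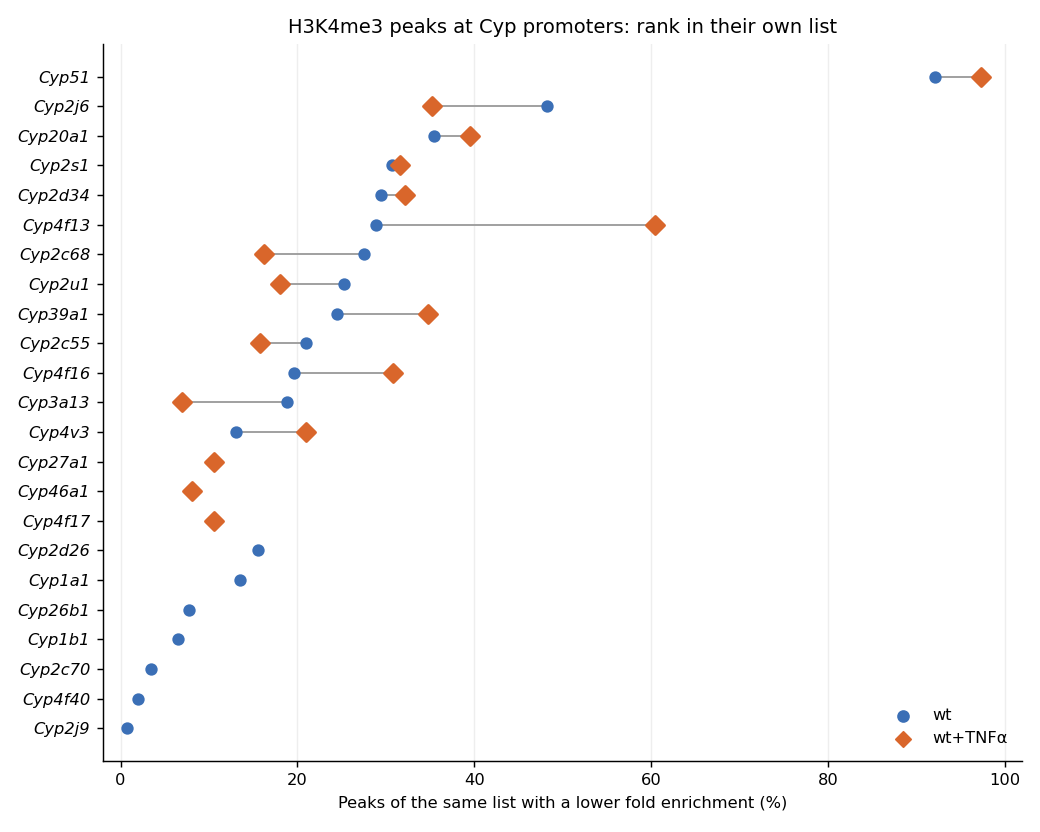
Each row is 1 of the 23 Cyp genes with H3K4me3 at the promoter in either condition, and the horizontal axis gives the percentage of peaks in the same list with a lower fold enrichment (circles, wt; diamonds, wt+TNFα; a missing symbol means no peak). The 7 genes with a wt circle alone lay between 0.701% and 15.5%, and Cyp51 was alone above 90% in wt at 92.1%.

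H3K4me3 was called in wt alone at 7 Cyp promoters (0.740% of all genes). Cyp1a1 had a wt peak of 2664 bp (chromosome 9, 57697044 to 57699707) whose fold enrichment was 9.37, and in wt+TNFα the nearest H3K4me3 peak was 10687 bp from a Cyp1a1 start. Cyp1b1, the other extrahepatic enzyme of family 1, had a fold enrichment of 6.80 in wt and no peak in wt+TNFα. Cyp26b1, which clears retinoic acid, had a peak of 382 bp in wt with 7.16. The other 4 were array members, namely Cyp2d26 (10.3), Cyp2c70 (5.81), Cyp4f40 (5.26) and Cyp2j9 (4.62). No family 1 gene had H3K4me3 at the promoter in wt+TNFα. With only the most 5′ start of each gene, the calls at Cyp1a1 and Cyp26b1 were lost, so that Cyp1a1 was unmarked and Cyp26b1 repressed in both conditions, and 5 genes had H3K4me3 in wt alone. With the upstream side alone, the calls at Cyp2c70 and Cyp2j9 were lost.

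These peaks were among the weakest of the wt list, with ranks from 0.701% to 15.5%, and weak peaks were more often missing from the other list at all genes as well. Of the 20 Cyp promoters with H3K4me3 in wt, 35.0% had no peak in wt+TNFα, compared with 1.43% of the 10777 genes with H3K4me3 in wt. When only promoters with a wt fold enrichment of up to 10.3, the highest value among the 7, were considered, 7 of 8 Cyp promoters had no wt+TNFα peak, compared with 136 of 826 genes (16.5%). This limit was chosen after the values were seen and with the members' own values, so the pair of shares is a description. When the wt+TNFα list was shortened to the covered autosomal length of the wt list by leaving out its peaks with the lowest −log10 q, the same 7 genes and Cyp2c55, Cyp2c68 and Cyp3a13 had H3K4me3 in wt alone, 10 in all (4.22% of all genes). The wt list stayed whole in this setting, so the 7 had to remain and the number could only grow. With the lower 50% of each list by −log10 q left out, 0 of the 7 had a peak in wt, since theirs lay below the wt median of 161. Neither setting is therefore a test of these calls.

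H3K4me3 was called in wt+TNFα alone at 3 Cyp promoters (1.50% of all genes). Cyp27a1, the mitochondrial sterol 27-hydroxylase of bile acid synthesis, had a peak of 624 bp in wt+TNFα (8.43), while in wt its promoter carried H3K27me3 (2.53) that was not called in wt+TNFα. Its class went from repressed to active. Cyp46a1, cholesterol 24-hydroxylase, had in wt+TNFα a peak of 391 bp (7.35) at a promoter with H3K27me3 in both conditions, and was repressed in wt and bivalent in wt+TNFα. Cyp4f17 had a peak of 916 bp (8.43) and was unmarked in wt. At equal covered length, 0 Cyp genes had H3K4me3 in wt+TNFα alone (0.231% of all genes), and none of these 3 peaks was in the shortened wt+TNFα list.

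Repressed promoters held 12 genes (12.0%) in both conditions, compared with 15.5% of all genes, and 8 of them were among the 19 genes listed for fixed metabolic pathways. With H3K27me3 peaks of a −log10 q of at least 2, 5 of the 12 were repressed in both, namely Cyp24a1, Cyp26a1, Cyp27b1, Cyp2r1 and Cyp8b1. The share of all genes was not computed for this filter. All 3 vitamin D hydroxylases carried H3K27me3 without H3K4me3 in both conditions. The 25-hydroxylase Cyp2r1 had a fold enrichment of 3.51 in wt and 2.49 in wt+TNFα, the 1α-hydroxylase Cyp27b1 had 2.73 and 3.26, and the catabolic 24-hydroxylase Cyp24a1 had 3.61 and 3.55. The H3K27me3 peak at Cyp24a1 was 8298 bp wide in wt and 13614 bp in wt+TNFα and also covered a promoter of Pfdn4. The gene of the vitamin D receptor, Vdr, was active in both, with an H3K4me3 fold enrichment of 28.1 in wt and 35.6 in wt+TNFα.

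Of the enzymes of retinoic acid clearance, Cyp26b1 lay in the widest H3K27me3 peak at a Cyp promoter in both conditions, a peak of 18193 bp in wt (4.50) and 29174 bp in wt+TNFα (4.05), and the covered share of its gene body was 76.6% and 100%. Cyp26a1 lay in a peak of 15898 bp in wt (3.21) and 20661 bp in wt+TNFα (3.45), with the gene covered to 100% in both. Its neighbour Cyp26c1 was unmarked at the promoter, but 31.5% and 38.3% of its gene body lay under H3K27me3. Among 13 other genes of the retinoid pathway, H3K27me3 was called at 8 promoters in wt and 7 in wt+TNFα. H3K4me3 was called at 4 and 6. The 2 with H3K4me3 in wt+TNFα alone were Aldh1a1, a retinaldehyde dehydrogenase (8.87), and the retinoic acid receptor gene Rarb (6.18).

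Cyp1b1 had the largest difference in H3K27me3 fold enrichment among the 15 Cyp genes with the mark in both conditions, a value computed separately for each library. By rank, other genes differed more, such as Cyp11b1 (54.5% in wt and 5.70% in wt+TNFα) and Cyp17a1 (46.4% and 92.4%). The values of Cyp1b1 follow. Its promoter peak was 1929 bp wide in wt with a fold enrichment of 2.56 (rank 89.0%), and 6995 bp in wt+TNFα with 4.80 (rank 99.9%). The share of the gene body under any H3K27me3 peak, at the promoter or elsewhere, was 13.0% in wt and 67.5% in wt+TNFα. Together with the H3K4me3 peak in wt alone, the class went from bivalent to repressed, as did that of Cyp26b1. Over all genes, 896 of 1122 bivalent promoters in wt were bivalent in wt+TNFα (79.9%), and 94 (8.38%) were repressed.

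In the sterol and bile acid group of 7 genes, H3K27me3 was called at 3 promoters in each condition. Cyp8b1, the sterol 12α-hydroxylase, was repressed in both (2.78 in wt and 2.33 in wt+TNFα), although unmarked in both with promoters of 500 bp or of the upstream side alone. Its wt+TNFα call rested on 168 bp and was lost with an overlap of at least 200 bp. Cyp7a1, the rate-limiting enzyme of classical bile acid synthesis, was repressed in wt+TNFα alone (1.76, −log10 q of 0.888). Cyp7b1 was unmarked in both, with the nearest H3K4me3 peak 918756 bp from its start in wt and 381527 bp in wt+TNFα. Steroid hormone synthesis had 0 of 6 genes with H3K4me3 in either condition. Here H3K27me3 was called in both at Cyp11b1 (2.12 in wt and 1.73 in wt+TNFα), Cyp11b2 (1.90 and 1.80) and Cyp17a1 (2.09 and 2.35), and in wt+TNFα alone at the aromatase gene Cyp19a1 (1.94), a call lost with promoters of 500 bp, with the upstream side alone and with 1 start per gene. With a −log10 q of at least 2, Cyp11b1 and Cyp11b2 were unmarked in both conditions and Cyp17a1 in wt, and with equal numbers of peaks or equal covered length the wt+TNFα calls at Cyp11b1 and Cyp11b2 were lost. At Cyp17a1, the 17α-hydroxylase, the covered share of the promoter was 50.9% in wt and 100% in wt+TNFα, in a wt+TNFα peak of 18764 bp that held the whole gene. The side-chain cleavage enzyme Cyp11a1 and the 21-hydroxylase Cyp21a1 were unmarked in both.

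**Figure D3:**
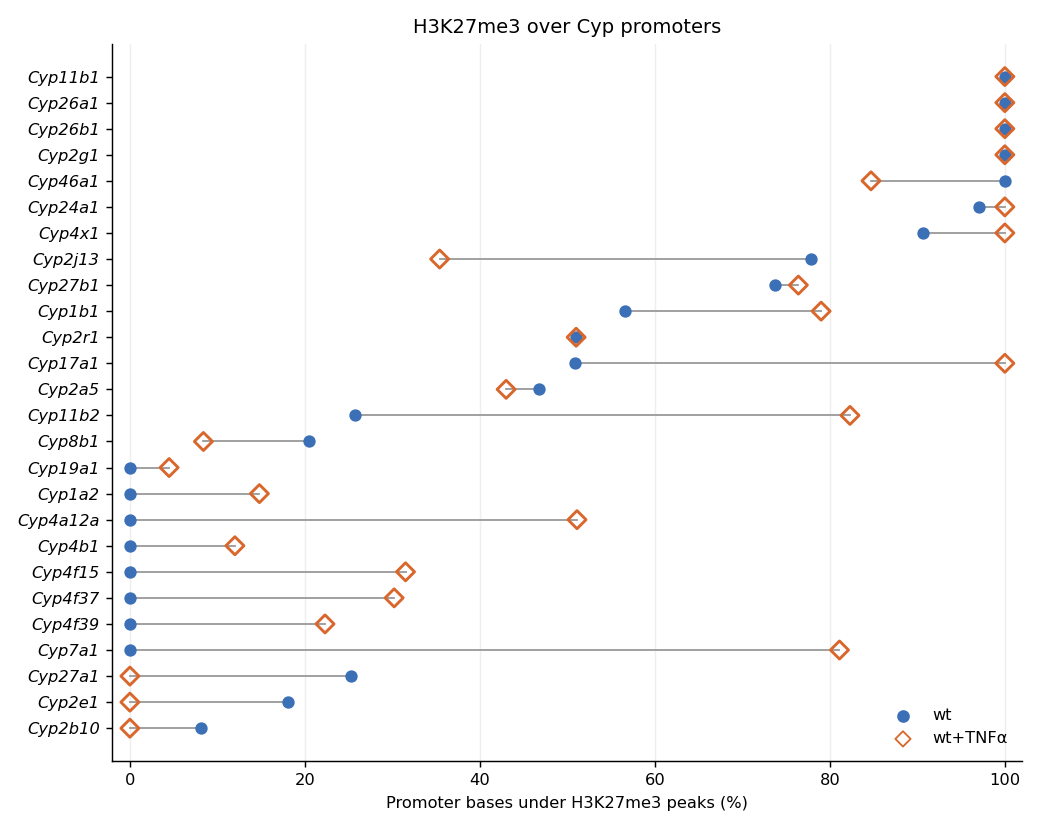
Each row is 1 of the 26 Cyp genes with H3K27me3 at the promoter in either condition, and the horizontal axis gives the percentage of its promoter bases under H3K27me3 peaks (circles, wt; open diamonds, wt+TNFα). Cyp26a1, Cyp26b1, Cyp2g1 and Cyp11b1 were at 100% in both, and the 8 genes with the mark in wt+TNFα alone were spread from 4.48% at Cyp19a1 to 81.1% at Cyp7a1.

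H3K27me3 was called in wt+TNFα alone at 8 Cyp promoters (6.48% of all genes). They were Cyp7a1, Cyp19a1, the hepatic family 1 gene Cyp1a2 (1.86), Cyp4a12a (1.78) and Cyp4b1 (1.93) of the fatty acid ω-hydroxylase array, and Cyp4f15 (1.74), Cyp4f37 (1.86) and Cyp4f39 (1.83). The calls at Cyp1a2 and Cyp4b1 were lost with 1 start per gene, that at Cyp1a2 also with protein-coding transcripts alone and that at Cyp4f15 with the upstream side alone, while Cyp4f39 was repressed in both conditions with promoters of 2000 bp. All 8 had been unmarked in wt. In wt+TNFα they had a fold enrichment of 1.74 to 1.94, a −log10 q of 0.825 to 1.41 and ranks from 7.43% to 57.8%. All 8 thus lay below a −log10 q of 2, the H3K27me3 threshold given in the reporting summary of the study. Cyp19a1 and Cyp4b1 lay above the median of the list (fold enrichment 1.90, −log10 q 1.34), and the other 6 below it. Of the 23 Cyp promoters with H3K27me3 in wt+TNFα, 34.8% had no wt peak, compared with 23.6% of the 5720 genes with the mark in wt+TNFα. The wt+TNFα H3K27me3 list covered 9.26% of the autosomes and the wt list 4.12%. At equal covered length, H3K27me3 was called at 18 wt and 11 wt+TNFα promoters of the Cyp genes (22.3% and 18.4% of all genes), with 0 in wt+TNFα alone (1.25% of all genes) and 7 in wt alone (5.16%), so the direction of the difference turned. H3K4me3 was then called at 10 Cyp promoters in wt+TNFα (47.8%), all active (45.2%), and 0 genes were bivalent (2.61%), 11 repressed (15.8%) and 79 unmarked (36.4%), with 17 differing in class from wt (10.4%).

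H3K27me3 was called in wt alone at 3 Cyp promoters (1.27% of all genes), namely Cyp27a1 (2.53), the ethanol-inducible Cyp2e1 (2.26) and the phenobarbital-inducible Cyp2b10 (1.92). With promoters of 2000 bp, Cyp2e1 and Cyp2b10 were repressed in both conditions, and Cyp2b10 was unmarked in both with 500 bp and Cyp2e1 with the upstream side alone. At Cyp2e1 the mark was called over the gene body in both conditions, to 53.6% in wt and 60.7% in wt+TNFα, and the nearest wt+TNFα peak was 1217 bp from a start. In all, 20 Cyp genes differed in class between the conditions (9.71% of all genes), and 55 were unmarked in both (25.9% of all genes). With the lower 50% of each list by −log10 q left out, 6 differed, and the share of all genes at this setting was not computed. Of the 13 active genes without a class difference, 7 had more and 6 fewer promoter bases under H3K4me3 in wt+TNFα, with a median difference of 12.0 bp, compared with 64.0 bp over the 10623 genes with H3K4me3 in both. Of the 15 Cyp genes with H3K27me3 in both, 6 had more promoter bases under it in wt+TNFα, 4 fewer and 5 equally many. The median difference was 0 bp, compared with 70.5 bp over the 4372 genes with H3K27me3 in both. The 4 with fewer were Cyp2j13, Cyp2a5, Cyp8b1 and Cyp46a1.

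The large clusters, 5401 kb in all, were less covered by both marks than the autosomes. H3K4me3 covered 0.398% of their bases in wt and 0.352% in wt+TNFα, compared with 0.724% and 0.792% of the autosomes. H3K27me3 covered 2.31% and 4.80%, compared with 4.12% and 9.26%. At equal covered length it covered 2.31% of the clusters in wt and 0.593% in wt+TNFα, so the order of the conditions turned. The clusters differed among themselves. The Cyp3a cluster on chromosome 5 (145345279 to 146113287), which holds the main hepatic and intestinal drug oxidases, had 0 H3K4me3 peaks over 768 kb in either condition, and 1 and 2 H3K27me3 peaks, none at a promoter. All 8 of its genes were unmarked in both. The Cyp2c cluster of 1180 kb had 3 H3K4me3 peaks in each condition, all at promoters of its genes, and H3K27me3 in 1 peak in wt alone.

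H3K27me3 was spread over 3 of the clusters. In the Cyp4f cluster (chromosome 17, 32452723 to 32947402) it covered 5.98% in wt in 14 peaks and 21.3% in wt+TNFα in 33 peaks. H3K4me3 covered 1.44% and 1.53% of it, but the interval also holds other protein-coding genes. Without the 3 peaks in each condition at promoters of those genes, H3K4me3 covered 0.773% and 0.729%, next to 0.724% and 0.792% of the autosomes. Without 1 such peak in each condition, H3K27me3 covered 5.16% and 19.6%. Of the 8 Cyp4f genes there, 3 were active and 0 repressed in wt, and 3 active and 3 repressed in wt+TNFα. The array of Cyp4a, Cyp4b1 and Cyp4x1 on chromosome 4 was covered by H3K27me3 to 4.65% and 11.2%, with Cyp4x1 repressed in both conditions (2.16 in wt and 2.26 in wt+TNFα). The chromosome 7 array of Cyp2a, Cyp2b, Cyp2f2, Cyp2g1, Cyp2s1 and Cyp2t4 had 4.65% and 5.60%. There the olfactory enzyme gene Cyp2g1 (2.49 and 2.0) and Cyp2a5 (2.23 and 2.1) were repressed in both, while H3K4me3 lay at Cyp2s1 alone.

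**Figure D4:**
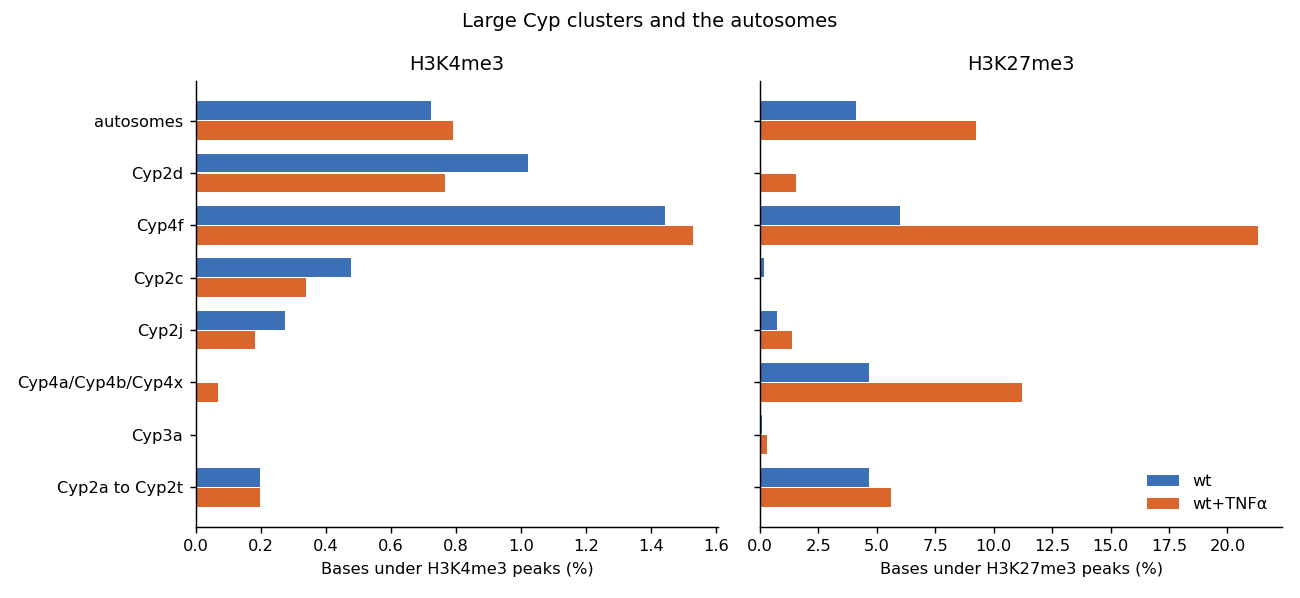
Bars give the percentage of bases under H3K4me3 peaks (left) and H3K27me3 peaks (right) for the autosomes and the 7 large Cyp clusters, in wt (blue) and wt+TNFα (orange). The Cyp4f cluster, with peaks of other genes in its interval included, had the longest bars for both marks, with 21.3% under H3K27me3 in wt+TNFα, and the Cyp3a cluster had no bar for H3K4me3.

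Sequence features were compared with the classes, since they were not used to choose the genes. The CpG observed-to-expected ratio, taken in the 1000 bp around the start with the highest value, had a median of 0.20 over the Cyp genes and 0.64 over all genes, and was at least 0.6 in 11.0% and 53.9%. None of the 11 CpG-rich Cyp genes was unmarked in either condition, where 4.45% of all CpG-rich genes were unmarked in wt and 3.93% in wt+TNFα. Of the 89 CpG-poor Cyp genes, 71.9% were unmarked in wt, compared with 62.7% of all CpG-poor genes, and 14.6% had H3K4me3, compared with 16.7%. In wt+TNFα, 69.7% of them were unmarked, compared with 53.2%, and 11.2% had H3K4me3, compared with 17.6%. Of the CpG-rich Cyp genes, 63.6% had H3K4me3 in wt, compared with 81.8% of all CpG-rich genes, and 54.5% had H3K27me3, compared with 22.7%. The ratio of the active Cyp promoters had a median of 0.25 in wt and 0.45 in wt+TNFα, compared with 0.78 over all active genes in each, and ranged from 0.04 at Cyp3a13 to 0.84 at Cyp51. Of the 18 active in wt, 5 were at 0.6 or above (27.8%), namely Cyp51, Cyp20a1, Cyp2u1, Cyp4v3 and Cyp39a1. The bivalent genes Cyp1b1 and Cyp26b1 both had 0.85.

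**Figure D5:**
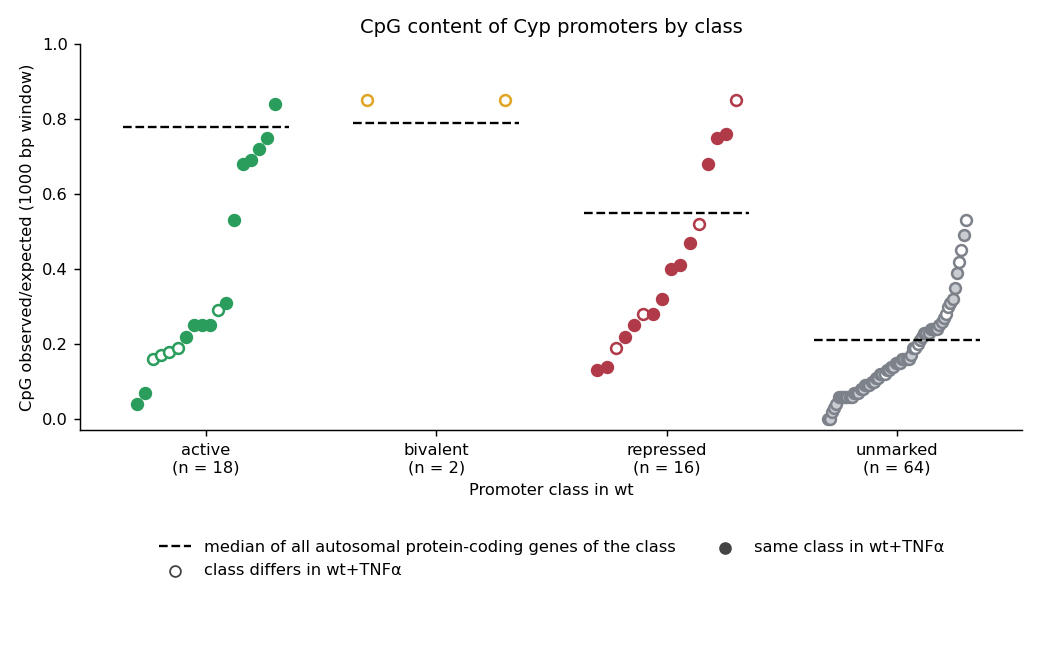
Each point is 1 Cyp gene, placed by its promoter class in wt (horizontal axis) and its CpG observed-to-expected ratio (vertical axis), with open points for genes whose class differed in wt+TNFα and dashed lines for the median of all autosomal protein-coding genes of the class. The 18 active Cyp genes had a median of 0.25, below the dashed line at 0.78, and the 64 unmarked genes a median of 0.15.

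Letters of known promoter elements were searched on both strands in 87 RefSeq promoters of 77 Cyp genes and in all 31396 promoters of the same length. The TATA box, as TATAAA, stood in 39.1% of the Cyp promoters and 13.6% of all, and CCAAT in 46.0% and 37.3%. The xenobiotic response element core (GCGTG) stood in 20.7% and 32.8%, among them Cyp1a1 at position −54 and Cyp1b1 at −76 from the start, and the E-box CACGTG in 2.30% and 7.14%. The sterol element TCACNCCAC stood in 3.45% and 1.25%, and the Cyp matches were at Cyp2a4, Cyp2a5 and Cyp2b10, not at Cyp51. The retinoic acid response element, as AGTTCA repeated after a spacer of 5 bases, stood in 1 Cyp promoter, that of Cyp26a1, and in 8 of all promoters (0.0255%). A match is a description of the sequence alone.

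Because the arrays hold near-identical copies, to which reads may not map uniquely, the share of promoter 50-mers that occur once in the genome was counted. Its median was 92.7% over the 64 unmarked Cyp genes and 98.9% over the 18 active ones in wt, and 5 unmarked genes were under 50%, the lowest being Cyp3a41b with 18.3% and Cyp3a41a with 19.1%. With 100-mers these were at 38.8% and 41.5%, 2 unmarked genes were under 50%, and the median was 99.4%. Cyp4a12a, unmarked in wt and with H3K27me3 in wt+TNFα alone, had 40.2% of 50-mers and 54.2% of 100-mers. Cyp2a5, repressed in both conditions, had 54.0% of 50-mers. The part of repeated sequence in the unmarked calls and the H3K27me3 calls was not tested. Cyp3a11, in the Cyp3a cluster, had 98.5% of 50-mers and was also unmarked.

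Most redox partners and sensors of the family carried H3K4me3. All 7 electron donor genes in the annotation had H3K4me3 in both conditions, with Por, the P450 reductase, at a fold enrichment of 34.2 in wt and 34.6 in wt+TNFα. Of 20 xenobiotic and sterol sensor genes, 15 had H3K4me3 in each. Ahr, the aryl hydrocarbon receptor, had 40.3 in wt and 21.4 in wt+TNFα, and its partner Arnt had 36.9 and 37.8. Ahrr, the repressor of this receptor, was unmarked in wt and repressed in wt+TNFα (1.80). The pregnane X receptor gene Nr1i2 had 23.9 and 27.9, and that of the constitutive androstane receptor, Nr1i3, was unmarked in both.

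Other drug-metabolising families, 21 genes each, differed in the same terms. H3K4me3 was called in wt and wt+TNFα at 4 and 3 UDP-glucuronosyltransferase genes, 2 and 4 sulfotransferase genes, 12 and 15 glutathione S-transferase genes and 12 and 13 aldehyde dehydrogenase genes. The shares in wt were 19% and 9.52% in the first pair of families, next to 20% of the Cyp genes, and 57.1% in each of the last pair. In wt+TNFα they were 14.3% and 19%, next to 16.0% of the Cyp genes, and 71.4% and 61.9%. The labelled cell type was checked by markers. H3K4me3 was called at 10 of 10 colonic epithelium genes in wt and 9 of 10 in wt+TNFα, where Krt20, a keratin of differentiated surface cells (6.21 in wt), had no peak, and at 0 of 9 hepatocyte, 0 of 8 fibroblast and endothelial and 0 of 7 leukocyte genes in either condition.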

How the data were processed

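Per the labels and the methods, the authors ran fastp on the reads, used bwa (2.2) to map them to GRCm38/mm10, removed duplicates with SAMtools (1.11), dropped blacklisted regions, and called narrow H3K4me3 and broad H3K27me3 peaks for each library with MACS2 (2.1.0 in the labels, another version in the reporting summary). In the deposited lists the fold enrichment is a ratio to the local background, and the authors' q-values are given as −log10. The authors computed both per library. For H3K27me3 the reporting summary gives a q-value threshold that corresponds to a −log10 q of 2. The deposited H3K27me3 lists reach down to 0.302 in wt and 0.747 in wt+TNFα, with medians of 0.779 and 1.34. The names of 3 lists mention a spike-in, and that of wt+TNFα H3K27me3 does not. Reads and inputs were not analysed here.

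Peaks were merged within each list and intersected (1 bp or more) with promoters of the GENCODE M21 annotation, for the 19 autosomes alone: of the H3K27me3 peaks, 30347 of 30594 in wt and 48962 of 60540 in wt+TNFα were autosomal. Calculations used Python 3.11.15, numpy 2.4.6 and matplotlib 3.10.9. The class calls were tested on simulated peak lists, where 4000 of 4000 planted classes of 2000 genes were recovered. Named were the Cyp genes with H3K4me3 in either condition, those whose class differed, those of the pathway groups, and the 3 with the highest fold enrichment in each list. Members and lists were chosen with earlier results of these data known. The depth behind a single peak is unknown. Alternative promoter sizes, transcript starts, overlaps and peak filters were tried.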

Additional observations from a re-analysis of the deposited data

How the results depend on the processing

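No paired analysis was possible because each mark and condition has 1 library, and for the same reason no replicate could be left out. Changing promoter size, overlap or transcript starts moved 2 counts by more than 1.5 times: with 1 start per gene, 1 Cyp gene was bivalent in wt, and 5 had H3K27me3 in wt+TNFα alone. No Cyp gene with a mark in 1 condition alone had that mark in the other condition alone under these changes or the peak filters below. Of the genes with H3K27me3 in both, Cyp2a5 had it in wt+TNFα alone at a −log10 q of at least 2 and in wt alone with 1 start per gene or at equal covered length, and Cyp11b2 in wt+TNFα alone with upstream promoters and in wt alone with equal numbers of peaks or at equal covered length.

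The peak filters moved more. With the lower 50% of each list by −log10 q left out, 1 Cyp gene was active and 0 bivalent in wt, 2 active and 0 bivalent in wt+TNFα, 6 differed in class, and 1 was active in both. H3K27me3 was then in wt+TNFα alone at 2 genes, and H3K4me3 in wt+TNFα alone at 1 and in wt alone at 0. The large clusters were covered by H3K4me3 to 0.0438% in wt and 0.0707% in wt+TNFα, so that the order turned, and by H3K27me3 to 1.45% and 2.88%. With H3K27me3 peaks of a −log10 q of at least 2, 7 genes were repressed in wt, 11 in wt+TNFα and 5 in both, H3K27me3 was in wt+TNFα alone at 4 and in wt alone at 1, and covered 0.0857% and 1.08% of the clusters. The 4 were Cyp17a1, Cyp2a5, Cyp2j13 and Cyp4x1, and none of them was among the genes with H3K27me3 in wt+TNFα alone without this filter. With equal numbers of peaks, 14 were repressed in wt+TNFα, H3K27me3 was in wt+TNFα alone at 2 and in wt alone at 5, and covered 2.88% of the clusters in wt+TNFα. At equal covered length, wt+TNFα had 0 bivalent and 11 repressed genes, H3K27me3 was in wt+TNFα alone at 0 and in wt alone at 7, H3K4me3 in wt+TNFα alone at 0, and H3K27me3 covered 0.593% of the clusters in wt+TNFα and 2.31% in wt, so that this order turned too. Fewer or shorter peaks enter each of these lists by construction. Shares of all genes were computed at equal covered length and not for the other peak filters. Clusters joined at 200 kb or 1000 kb moved no covered share of the clusters by more than 1.5 times. Nor did leaving out peaks at promoters of other protein-coding genes, an alternative chosen after seeing the data, over the clusters together. With 100-mers in place of 50-mers, 2 unmarked Cyp genes were under 50% in wt in place of 5, and Cyp3a41b was at 38.8% in place of 18.3%, while the median of the unmarked genes was 99.4% in place of 92.7%.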
